A study of Homo sapiens with 6 samples.

Results

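Accessible chromatin around RUNX1, ERG and ETS2, a trio of transcription factor genes on chromosome 21, was described in 6 established lines of T-ALL, the acute lymphoblastic leukaemia that arises from T-cell precursors. Their names are TALL-1, MOLT-4, KOPT-K1, HBP-ALL, DND-41 and CCRF-CEM, each grown in RPMI medium with no treatment named and each represented by 1 ATAC-seq library. ATAC-seq marks open DNA by cutting and tagging it with the Tn5 transposase, and a peak is a place where more tags pile up than in the local background. Members were the peak intervals that overlapped the hg19 windows chr21:36130000-37400000 for RUNX1, chr21:39730000-40060000 for ERG and chr21:40150000-40220000 for ETS2. The windows were chosen by gene position, with the high TALL-1 peak heights on this part of the chromosome already known from the same lists, so that height in TALL-1 is given as a description with no test. The windows held 90 peak intervals, which merged across lines into 37 regions of 40110 in the genome. Of these, 30 lay in the RUNX1 window, 5 in the ERG window and 2 in the ETS2 window. With 1 library per line there is no replicate error, and a difference between lines cannot be told apart from a difference between preparations.

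RUNX1 encodes the DNA-binding subunit of core-binding factor, which pairs with CBFB; it is required to form blood stem cells and acts again in developing thymocytes, and it is transcribed from a distal and a proximal promoter. In T-ALL it is known both as a member of the TAL1 transcriptional circuit and as a gene hit by mutations. ERG and ETS2 belong to the ETS family, whose members bind a GGAA core: ERG maintains blood stem cells and is known in T-ALL with an immature profile, and ETS2 is a nuclear target of Ras and MAP kinase signalling. In RefSeq's gene order for GRCh38.p14, ERG and ETS2 are direct protein-coding neighbours on chromosome 21, while RUNX1 lies between CLIC6 and SETD4. No genome or annotation of build hg19 was used here, so peaks carry positions but were not assigned to promoters, exons or introns, and their own bases are not printed.

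The sequences in front of the annotated starts of the 3 genes show which DNA words of the RUNX and ETS families lie there. RefSeq's table for GRCh38.p14 gives 1 start for RUNX1, 4 for ERG and 2 for ETS2, so that a single RUNX1 promoter was searched, without asking which of the pair it is. The 250 bases before each start were searched on both strands for a RUNX word, TGTGGT (reverse ACCACA), and for 2 ETS words, CCGGAA (reverse TTCCGG) and AGGAAG (reverse CTTCCT). The 4 stretches below hold 1 match each, in capitals, and are written 5′ to 3′ on the strand of the gene:
RUNX1, minus strand: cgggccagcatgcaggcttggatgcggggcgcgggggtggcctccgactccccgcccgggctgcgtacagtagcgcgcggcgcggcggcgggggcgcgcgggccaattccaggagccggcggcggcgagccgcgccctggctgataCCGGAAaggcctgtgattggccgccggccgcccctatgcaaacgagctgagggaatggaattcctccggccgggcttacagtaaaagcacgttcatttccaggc
ERG, start 3, minus strand: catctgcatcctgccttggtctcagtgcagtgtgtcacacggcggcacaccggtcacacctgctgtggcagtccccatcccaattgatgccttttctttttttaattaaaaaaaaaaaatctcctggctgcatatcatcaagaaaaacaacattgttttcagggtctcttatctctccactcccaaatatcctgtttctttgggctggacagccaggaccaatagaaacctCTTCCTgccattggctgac
ETS2, start 1, plus strand: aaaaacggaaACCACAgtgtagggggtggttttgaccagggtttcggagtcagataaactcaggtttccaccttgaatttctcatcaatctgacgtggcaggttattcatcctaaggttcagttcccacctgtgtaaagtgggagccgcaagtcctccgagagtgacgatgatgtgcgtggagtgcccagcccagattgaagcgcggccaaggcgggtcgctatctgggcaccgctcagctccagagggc
ETS2, start 2, plus strand: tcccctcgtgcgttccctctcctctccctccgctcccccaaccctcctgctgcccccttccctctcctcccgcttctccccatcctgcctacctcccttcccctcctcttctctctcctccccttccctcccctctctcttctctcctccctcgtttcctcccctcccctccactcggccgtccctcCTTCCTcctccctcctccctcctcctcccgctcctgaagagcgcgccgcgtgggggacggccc
The RUNX1 stretch searched held the ETS word CCGGAA, and the first ETS2 stretch held the RUNX word as ACCACA. The fourth ERG start held the same CTTCCT as the overlapping start 3, and the first 2 ERG stretches held none of the words. Such matches are common: among 35116 promoter stretches of this length, 11.0% held the RUNX word, 14.5% the first ETS word and 28.7% the second. A match is a description of the letters and was not tied to any peak.

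TALL-1 had the shortest peak list, with 16507 intervals, and CCRF-CEM the longest, with 22367. Heights are summit pileups, whole numbers of tags recovered from the authors' fold enrichment and −log10 p, and every interval of the windows gave one. The read totals are not known here. The median pileup at the 9053 regions with a peak in every line served as the scale of each library: it was 44.0 tags in TALL-1, 36.0 in MOLT-4, 36.0 in KOPT-K1, 39.0 in HBP-ALL, 40.0 in DND-41 and 31.0 in CCRF-CEM. Calls went down to 9 tags in TALL-1 and to 6, 7 or 8 tags elsewhere, and a missing peak means fewer tags than a call needed there, not closed chromatin.

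Open regions of the 3 windows were rarely common to all lines. A peak in every line was found at 3 of the 37 regions (8.11%), against 22.6% of all merged regions in the genome. A peak in 1 line only was found at 15 regions (40.5%), against 43.2% in the genome. On the rest of chromosome 21 below 43.3 Mb, the stretch on which TALL-1 heights are high, 68 of 363 regions (18.7%) were shared by every line and 181 (49.9%) belonged to 1 line.

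TALL-1 and MOLT-4 had the most regions in the windows, 19 of 37 each (51.4%). HBP-ALL had 16 (43.2%), CCRF-CEM 14 (37.8%), DND-41 10 (27.0%) and KOPT-K1 7 (18.9%). TALL-1 had a peak at 61.4% of the other regions of the stretch and at 40.7% of regions in the genome, so its share in the windows lay between the 2. MOLT-4 had a peak at 39.4% of the other regions of the stretch and at 47.3% in the genome, both below its share in the windows. KOPT-K1 had the lowest share in the windows and also on the rest of the stretch, where it stood at 27.8%, against 44.8% in the genome. The order of lines depended on the lists. With equal numbers of peaks per line, the RUNX1 window held 6 intervals in KOPT-K1, 5 in CCRF-CEM and 4 in HBP-ALL. HBP-ALL had a peak at 43.0% of the other regions of the stretch and at 54.5% in the genome. For CCRF-CEM these shares were 39.4% and 55.4%. For DND-41 they were 41.3% and 44.3%, both above its share in the windows.

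**Figure D1:**
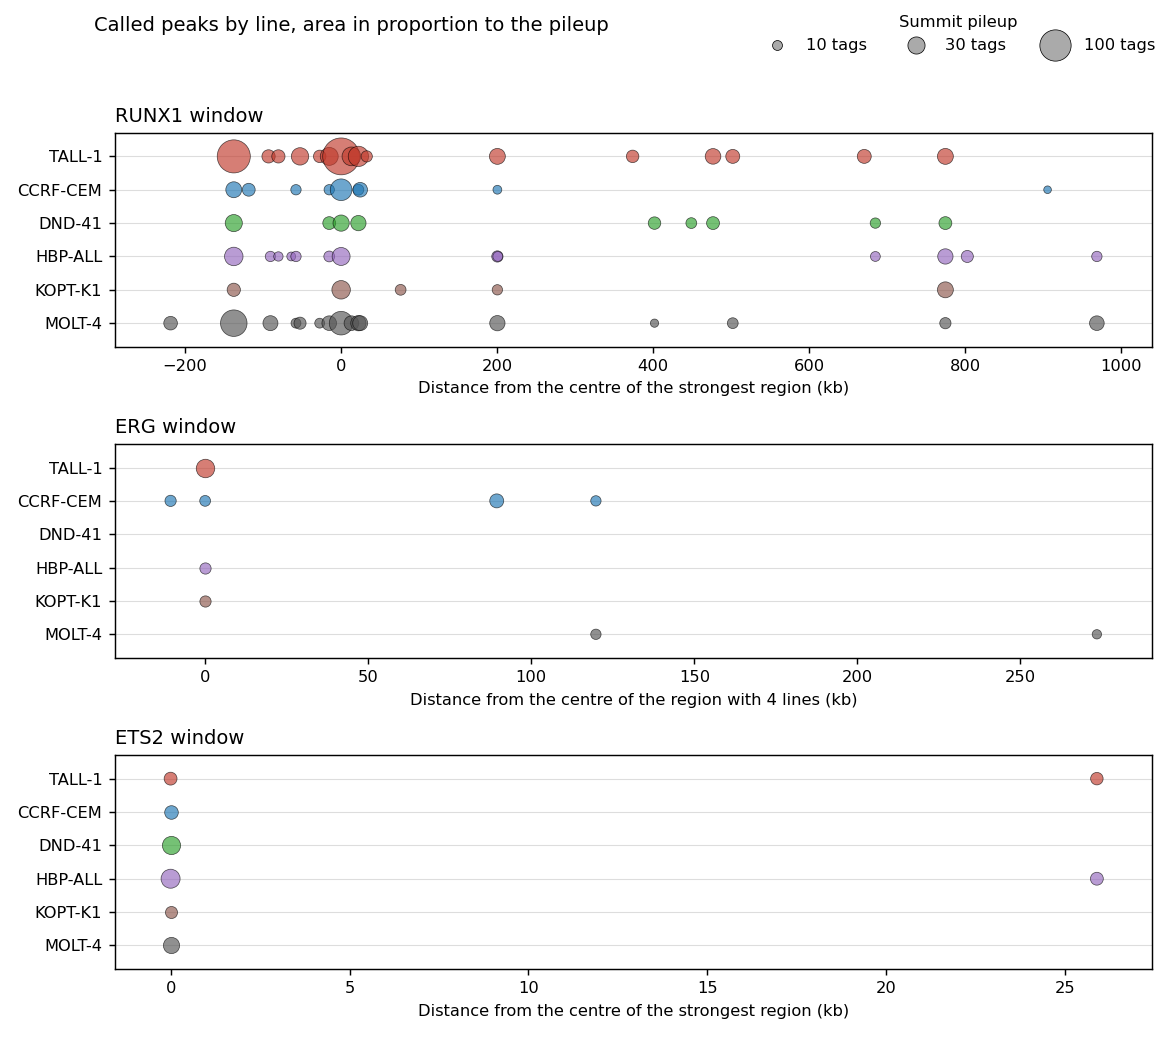
Each point is the strongest peak of a line in a merged region, at the region's distance in kb from the centre of the strongest region of the RUNX1 and ETS2 windows, or of the ERG region with peaks in 4 lines. Rows are the 6 lines and the area of a point follows the summit pileup. The 2 largest RUNX1 columns hold all 6 lines, ERG has no peak in DND-41, and the ETS2 point of TALL-1 (17 tags) is small beside its RUNX1 points (112 and 139 tags).

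The RUNX1 window held 72 intervals. TALL-1 had 16 of them, MOLT-4 17, HBP-ALL 14, CCRF-CEM 10, DND-41 9 and KOPT-K1 6. TALL-1 intervals covered 7980 bp and MOLT-4 intervals 7739 bp, and KOPT-K1 intervals covered 2768 bp. The regions were crowded at the low end: 17 of 30 lay within 295.3 kb, chr21:36180498-36475767, and the other 13 were spread over 768.9 kb above a gap of 123.5 kb. In the crowded part TALL-1 had peaks at 10 regions, against 11 in MOLT-4, 3 in KOPT-K1, 4 in DND-41, 7 in HBP-ALL and 7 in CCRF-CEM. In the sparse part the counts were 6 in TALL-1, 2 in KOPT-K1, 2 in CCRF-CEM, 5 in MOLT-4, 5 in DND-41 and 6 in HBP-ALL. The border between the parts was chosen after the positions were seen.

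The first of the RUNX1 regions shared by every line, chr21:36260832-36262712, was a wide element with more than 1 summit in all 6 lines. Its strongest summit had a pileup of 112 tags in TALL-1, against 72 in MOLT-4, 18 in KOPT-K1, 35 in HBP-ALL, 30 in DND-41 and 26 in CCRF-CEM. TALL-1 and MOLT-4 stood above the other 4 lines, whose values lay between 18 and 35 tags. The exact Poisson 95% interval of the TALL-1 pileup was 92.2 to 135 tags and that of MOLT-4 56.3 to 90.7. Such intervals cover counting error only and are in tags that are not scaled to the library. Scaled to each library's median, the TALL-1 height was 1.60 above the median of the other 5 lines on the log2 scale, and the MOLT-4 height was 1.25 above the median of its other 5.

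The summits of this region fell into 2 groups. The first held 1 summit of each line within 49 bp, from 36261107 to 36261156. The second held 8 summits from 36261924 to 36262418, beginning 768 bp further on, and again included all 6 lines. TALL-1 had summits of 112, 86 and 87 tags in a single interval of 1686 bp. MOLT-4 had 72 tags in the first group and 45 in the second, in separate intervals. In KOPT-K1 both groups reached 18 tags, and its second group was the stronger by −log10 p, 8.64 against 8.57. In the other 5 lines the first group held the strongest summit.

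The second shared RUNX1 region, chr21:36398965-36399733, lay 136.3 kb above the first and had 1 summit in each line but KOPT-K1, which had 2. Its pileup was 139 tags in TALL-1, against 57 in MOLT-4, 35 in KOPT-K1, 33 in HBP-ALL, 27 in DND-41 and 48 in CCRF-CEM. The TALL-1 value, with a Poisson interval of 117 to 164 tags, stood apart from all 5 others, and DND-41 was the lowest. The strongest summits of the 6 lines lay within 84 bp, from 36399231 to 36399315. Within its own list, this peak ranked 92nd of 16507 by −log10 p in TALL-1 (93.46). It was also the strongest RUNX1 peak by −log10 p in CCRF-CEM, DND-41, HBP-ALL and KOPT-K1, but not in MOLT-4, where the first region led with 32.30 against 30.79. TALL-1 stood 1.70 above the median of the other 5 lines and DND-41 1.2 below the median of its other 5, both on the log2 scale of scaled pileups.

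Read as calls at 2 times above or below the other lines' median, TALL-1 was higher at 2 of the 3 shared regions of the windows, against 2.28% of all shared regions in the genome. It was higher at 55 of the 68 other shared regions of the stretch (80.9%). MOLT-4 was higher at 1 of 3, against 1.69% in the genome and 7 of 68 (10.3%) on the rest of the stretch. DND-41 was lower at 1 of 3, against 1.33% in the genome and 3 of 68 (4.41%) on the rest of the stretch. These counts rest on 3 regions and describe 1 library each. With fold enrichment in place of pileup, an alternative added after seeing the data, 0 of the 3 regions were called in any line in either direction.

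**Figure D2:**
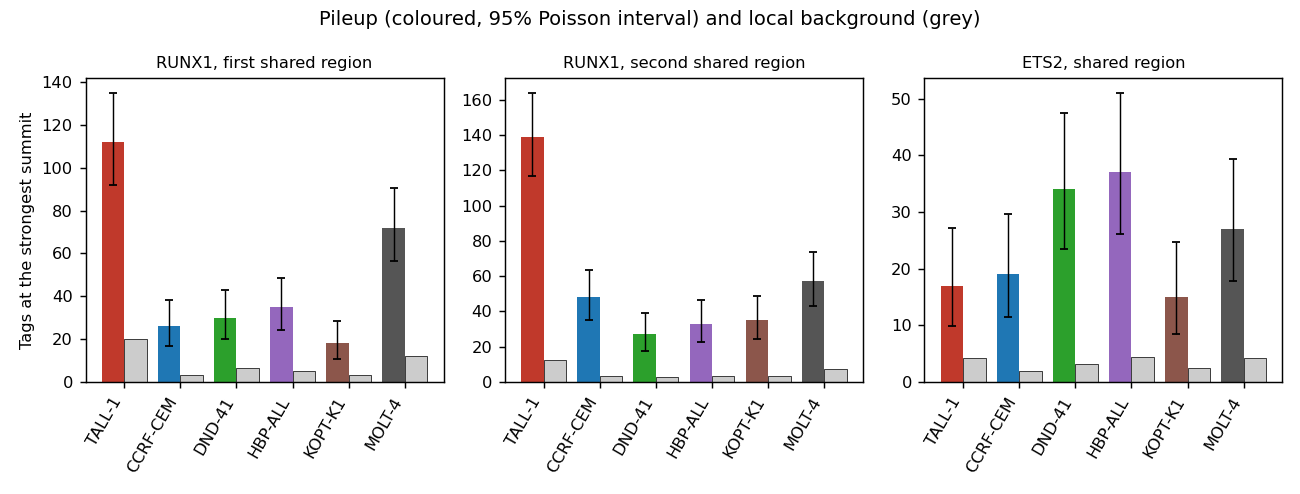
Coloured bars give the tags at the strongest summit of each line, with exact Poisson 95% intervals, and grey bars give the recovered local background. At both RUNX1 regions the TALL-1 bar (112 and 139 tags) is the highest, while at ETS2 it (17 tags) lies below those of 4 other lines (19 to 37) and above that of KOPT-K1 (15).

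The local background at RUNX1 was also high in TALL-1. At the first shared region it was 20.16 tags in TALL-1, against 3.28 to 11.87 in the other lines, and the authors' fold enrichment was 5.34 in TALL-1, against 4.11 to 6.13. At the second it was 12.39 tags in TALL-1, against 2.88 to 7.51, with a fold of 10.46 in TALL-1, against 6.82 to 11.70. On the scale of relative heights, log2 values centred on each library's median and set against the 6-line mean, the TALL-1 pileup stood at 1.26 and 1.31 at these regions. Its fold enrichment stood at 0.09 and 0.34, and its local background at 1.25 and 1.08. Over the other 68 shared regions of the stretch, the TALL-1 medians were 0.15 in fold enrichment and 1.22 in local background. MOLT-4 pileups stood at 0.91 and 0.31, its local background at 0.84 and 0.71, and its fold enrichment at 0.18 and −0.27. The local background comes from the same tags around the peak, so it can rise with a peak itself, and its part in the TALL-1 heights was not tested.

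RUNX1 regions found in some of the other lines only were mostly highest in TALL-1 where it had a peak. At 10 further regions of the window a TALL-1 peak met peaks of 1 to 4 other lines. Over all 12 such regions, with the shared ones, the scaled TALL-1 pileup exceeded the median of the lines present at each, by 0.21 to 1.70 on the log2 scale with a median of 0.71. On the rest of the stretch the same quantity had a median of 1.12 over 148 regions, 10 of them below 0, and in the genome −0.06 over 14848 regions. Single lines stood above TALL-1 after scaling at 2 of the 12 regions, although none had more tags. These regions were picked for holding a called peak in TALL-1 and in another line, which leaves out low values of either at weak sites. The effect of this choice on the differences was not tested.

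The region chr21:36421221-36421751, above the second shared region, had 42 tags in TALL-1, against 24 in MOLT-4, 24 in DND-41 and 12 in CCRF-CEM. HBP-ALL and KOPT-K1 had no peak there. At chr21:36383755-36384490 the pileup was 33 tags in TALL-1, against 22 in MOLT-4, 12 in HBP-ALL, 17 in DND-41 and 11 in CCRF-CEM, and KOPT-K1 had no peak. The pair lay on either side of the second shared region, and KOPT-K1 was the line that lacked them both.

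Further out, chr21:36599316-36599915 had 26 tags in TALL-1, against 24 in MOLT-4, 11 in KOPT-K1, 13 in HBP-ALL and 8 in CCRF-CEM, with no DND-41 peak. After scaling, TALL-1 stood 0.17 below MOLT-4 there, a difference of −0.17. TALL-1 stood out least at chr21:37173523-37174139. It had 26 tags in TALL-1, against 13 in MOLT-4, 26 in KOPT-K1, 24 in HBP-ALL and 17 in DND-41, with no CCRF-CEM peak. TALL-1 stood there at 0.21 above the median of the lines present after scaling, but its scaled difference was −0.29 to KOPT-K1, which had the same number of tags, and −0.06 to HBP-ALL.

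TALL-1 and MOLT-4 shared 4 regions with no other line, all in the RUNX1 window, out of 13 regions of the windows with peaks in exactly 2 lines (30.8%). On the rest of the stretch this pair made up 8 of 60 such regions (13.3%), and in the genome 237 of 5436 (4.36%). The pileup was 31 tags in TALL-1, against 15 in MOLT-4, at chr21:36346361-36347008, and 16 tags in TALL-1, against 10 in MOLT-4, at chr21:36371607-36372142. It was 36 tags in TALL-1, against 22 in MOLT-4, at chr21:36412345-36412786, and 20 tags in TALL-1, against 12 in MOLT-4, at chr21:36901038-36901585. TALL-1 was the higher at each, by 0.39 to 0.76 after scaling. TALL-1 and MOLT-4 had 11 regions of the windows in common, 57.9% of the regions of each, and were the lines with the most regions, 19 each. In other pairs the shares ran from 26.3% of MOLT-4 regions, with KOPT-K1, to 85.7% of KOPT-K1 regions, with TALL-1 or HBP-ALL.

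One recurrent region of the windows, meaning one that 3 or more of the remaining lines also had, had no TALL-1 peak. It was chr21:36341309-36341661 in the RUNX1 window, with 10 tags in MOLT-4 and 11 tags each in HBP-ALL and CCRF-CEM. TALL-1 thus missed 1 of 9 recurrent regions of the windows (11.1%), against 10 of 107 on the rest of the stretch (9.35%) and 23.1% in the genome. CCRF-CEM, HBP-ALL and MOLT-4 missed 1 of 8 each (12.5%), in each case a lower share than on the rest of the stretch and in the genome. DND-41 and KOPT-K1 missed 3 of 9 each (33.3%). For DND-41 the share was 13.8% on the rest of the stretch and 16.5% in the genome. For KOPT-K1 it was 27.4% on the rest of the stretch, closer to its share in the windows, and 16.1% in the genome. The shares in the windows rest on 8 or 9 regions per line. The lowest TALL-1 call in the RUNX1 window had 13 tags, and the lowest on chromosome 21 had 9. The 10 or 11 tags at the region that TALL-1 missed belong to other lines and are not scaled. Why TALL-1 had no call there was not tested.

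Peaks of a single line had 6 to 20 tags. By −log10 p, the strongest of those found in CCRF-CEM was chr21:36280798-36281069 (17 tags, −log10 p 16.09), followed by an ERG region described further on (14.65). Both exceeded the CCRF-CEM value at the shared ETS2 region (13.74), and the first also that at the first shared RUNX1 region (15.08). In TALL-1 the strongest were chr21:37069647-37070076 (20 tags, 9.50) and chr21:36772856-36773057 (16 tags, 7.31). MOLT-4 had chr21:36180498-36181061 (19 tags, 9.74) and a weak ERG region. HBP-ALL had chr21:37201735-37202119 (15 tags, 11.73) and chr21:36600004-36600261 (10 tags, 5.29), KOPT-K1 chr21:36475469-36475767 (12 tags, 9.86), and DND-41 chr21:36848079-36848315 (12 tags, 6.62). No line had 2 of its own regions next to each other.

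Peaks at ERG differed from line to line. The window of 330.0 kb held 9 intervals in 5 regions, and none of them had a peak in every line. TALL-1 had 1 interval, as had HBP-ALL and KOPT-K1, while CCRF-CEM had 4 and MOLT-4 2. DND-41 had none, and its lowest call anywhere was 8 tags.

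The ERG region seen in most lines was chr21:39758768-39759368, with 35 tags in TALL-1, against 13 in KOPT-K1, 13 in HBP-ALL and 12 in CCRF-CEM. TALL-1 was the highest, at 1.14 above the median of the lines present on the log2 scale, against a median of 1.33 over the 97 regions of the rest of the stretch with a TALL-1 peak and at least 3 others. DND-41 and MOLT-4 had no peak at it. The remaining ERG peaks had no TALL-1 call. CCRF-CEM alone had chr21:39748284-39748660 with 13 tags and chr21:39848363-39848587 with 20 tags. CCRF-CEM and MOLT-4 had 11 tags each at chr21:39878648-39879113, and MOLT-4 alone had 9 tags at chr21:40032294-40032683. CCRF-CEM was thus the line with the most ERG regions, 4 of 5, although TALL-1 had the highest pileup of the window. This count rests on 5 regions. CCRF-CEM also had the highest share of regions in the genome, 55.4%, and had a peak at 39.4% of the stretch outside the windows.

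ETS2 was the locus at which TALL-1 stayed low. The region chr21:40177095-40178352, open in every line, had 17 tags in TALL-1, against 27 in MOLT-4, 15 in KOPT-K1, 37 in HBP-ALL, 34 in DND-41 and 19 in CCRF-CEM. HBP-ALL and DND-41 were the highest, and TALL-1 and KOPT-K1 the lowest. In unscaled tags, the Poisson interval of the TALL-1 pileup, 9.90 to 27.2, overlapped those of CCRF-CEM (11.4 to 29.7), DND-41 (23.5 to 47.5), HBP-ALL (26.1 to 51.0), KOPT-K1 (8.4 to 24.7) and MOLT-4 (17.8 to 39.3). The overlap with HBP-ALL was narrow, and the library medians differ, at 44.0 tags in TALL-1 and 39.0 in HBP-ALL. Overlap in tags therefore does not show that scaled heights agree within counting error. After scaling, TALL-1 stood 0.96 below the median of the other 5 lines on the log2 scale. It therefore just missed a call at 2 times below that median, so that 0 of 3 shared regions of the windows were called lower in TALL-1, against 4.73% of shared regions in the genome.

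Among the 71 regions of the stretch shared by every line, the TALL-1 value at ETS2 was the lowest. Its relative height was −0.69. The other 68 shared regions of the stretch had a median of 1.18, with quartiles of 0.92 and 1.36 and a lowest value of −0.36, so that ETS2 stood 1.87 below the median. The RUNX1 regions, with a median of 1.28, stood 0.11 above that same median, a value that rests on 2 regions. The direction turned over wider sets of RUNX1 regions. With a TALL-1 peak and at least 3 other lines, the height above the lines present had a median of 0.92 over 6 RUNX1 regions, against 1.33 on the rest of the stretch. With at least 1 other line it was 0.71 over 12, against 1.12. The sets differ in make-up. With at least 3 other lines, 2 of the 6 RUNX1 regions were shared by every line, against 68 of 97 on the rest of the stretch. Below 0 were 5 of the 71 shared regions of the stretch, and ETS2 was the 1 of these in the windows. Among 148 regions outside the windows with a TALL-1 peak and at least 1 other line, the lowest TALL-1 height above the lines present was −1.07, below the −0.96 at ETS2. The other 4 lay far below it on the chromosome, between chr21:9825473-9827531 and chr21:25340984-25341826, with relative TALL-1 heights of −0.36 to −0.08. Against single lines the scaled difference of TALL-1 at ETS2 was −0.96 to MOLT-4, −0.11 to KOPT-K1, −1.30 to HBP-ALL, −1.14 to DND-41 and −0.67 to CCRF-CEM. The medians of these differences over the rest of the stretch were all above 0, at 1.48 to CCRF-CEM, 1.38 to DND-41, 1.76 to KOPT-K1, 1.37 to HBP-ALL and 1.0 to MOLT-4.

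The ETS2 value was low in fold enrichment as well. The authors' fold was 3.43 in TALL-1, against 5.35 in MOLT-4, 4.72 in KOPT-K1, 6.95 in HBP-ALL, 8.54 in DND-41 and 6.98 in CCRF-CEM. On the relative scale TALL-1 stood at −0.70, against a median of 0.15 over the other 68 shared regions, none of which was lower. Its local background at ETS2, 4.25 tags, lay within the 1.87 to 4.47 tags of the other lines and stood at 0.06 on the relative scale, where the rest of the stretch had a median of 1.22. Within its own list, 94.4% of TALL-1 peaks reached the −log10 p of 6.23 seen at ETS2.

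**Figure D3:**
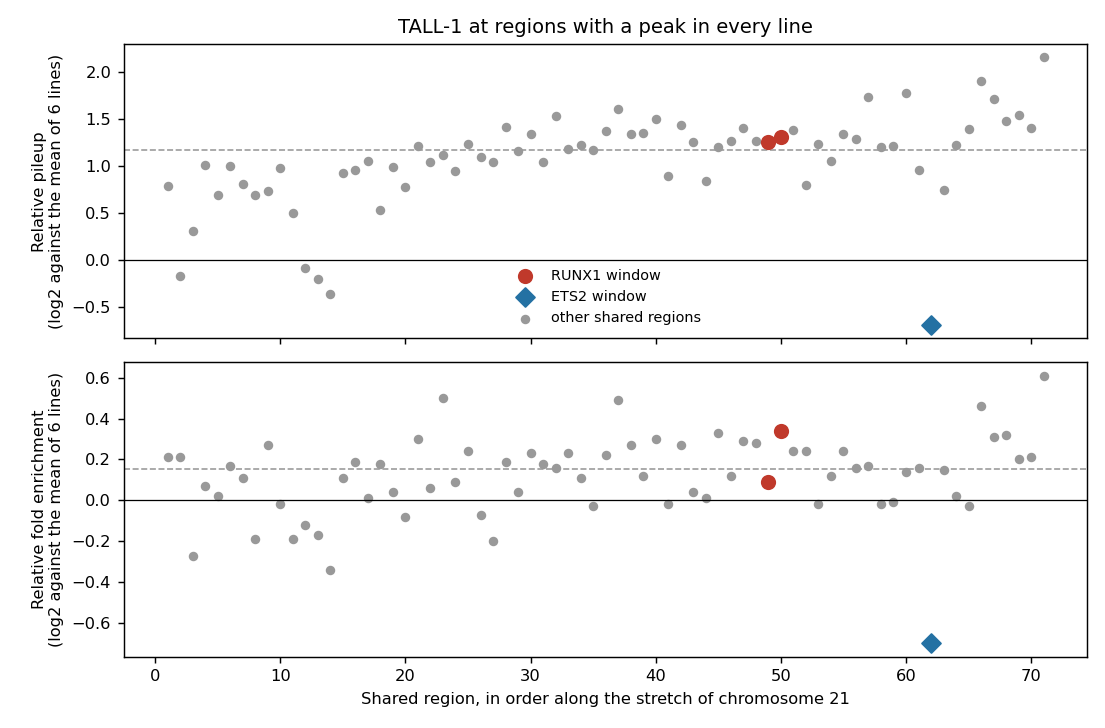
Points are the 71 shared regions of the stretch in order along chromosome 21, with the relative TALL-1 pileup above and its relative fold enrichment below, both log2 against the mean of 6 lines; dashed lines are medians of the regions outside the windows. The RUNX1 points sit near the dashed line of 1.18, and ETS2 is the lowest point in both panels, at −0.69 and −0.70.

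The shape of the ETS2 peak also varied. Its summits fell into 2 groups, from 40177486 to 40177561 and from 40177757 to 40177940. The first group held summits of 5 lines and the second of all 6. HBP-ALL had 37 tags in the first and 20 in the second, while DND-41 had 23 in the first and 34 in the second. In TALL-1 both groups reached 17 tags, in separate intervals of 276 and 264 bp, whereas each of the other lines had 1 interval of 650 to 1085 bp. CCRF-CEM had a summit only in the second group, with 19 tags.

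**Figure D4:**
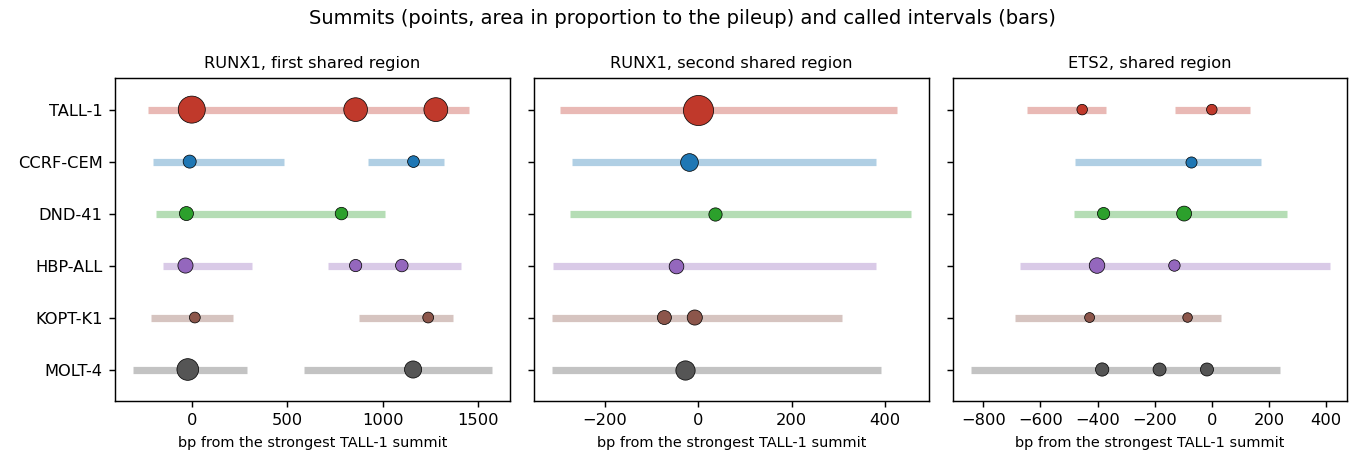
Points are the called summits of the 3 shared regions, in bp from the strongest TALL-1 summit, with areas that follow the pileup, and bars are the called intervals. The strongest summits of the lines line up within 84 bp at the second RUNX1 region, while the first RUNX1 region and ETS2 have 2 groups each, and only TALL-1 splits the ETS2 peak into 2 intervals.

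At the nearest regions shared by every line on either side of ETS2, TALL-1 had the most tags. The one before, 37.4 kb away at chr21:40138839-40139743, had 35 tags in TALL-1, against 17 in MOLT-4, 12 in KOPT-K1, 15 in HBP-ALL, 15 in DND-41 and 8 in CCRF-CEM, and a relative TALL-1 height of 0.96. The one after, 131.3 kb away at chr21:40309690-40310648, had 28 tags in TALL-1, against 24 in HBP-ALL, 14 in MOLT-4, 12 in DND-41, 9 in KOPT-K1 and 8 in CCRF-CEM, and a relative height of 0.75 in TALL-1, against 0.70 in HBP-ALL. Closer regions found in fewer lines did not show this order. The other ETS2 region, chr21:40203388-40203831, had 16 tags in TALL-1, against 17 in HBP-ALL, and no peak elsewhere. A region just above the ETS2 window, chr21:40234053-40234408, had an HBP-ALL peak of 15 tags and no TALL-1 peak. After scaling TALL-1 stood 0.26 below HBP-ALL at chr21:40203388-40203831. Over the 68 other shared regions of the stretch its difference to HBP-ALL ran from 0.05 to 2.88, but those had a peak in every line. A closer set is the 148 regions outside the windows with a TALL-1 peak and at least 1 other line. There the TALL-1 height above the lines present ran from −1.07 to 3.34, and 10 regions were below 0.

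The regions closest outside the RUNX1 window were a MOLT-4 peak of 14 tags, 49.4 kb below it, and a region shared by every line 32.3 kb above it with 128 tags in TALL-1, against 28 to 41 in the others. The first region inside had 19 tags in MOLT-4, and the last had 11 in HBP-ALL and 22 in MOLT-4. At the ERG window the nearest regions outside were peaks of TALL-1 (24 tags, 230.8 kb below) and HBP-ALL (11 tags, 46.0 kb above). At the border of the stretch, the last shared region inside had a relative TALL-1 height of 2.16 and the first outside one of −0.14. The border was given together with the TALL-1 heights already known from these lists, so a drop across it is no separate finding. The region inside was also the highest in TALL-1 of the 71 shared regions of the stretch.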

How the data were processed

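ATAC-seq peak lists of 6 T-ALL cell lines, 1 library and 1 list per line, were analysed as deposited. Per the submitters' processing notes, Bowtie2, Picard, SAMtools and MACS2 2.1.1.2016030 were used with build hg19; for settings and any Tn5 shift the sources used here give nothing. The lists have no header and were read as narrowPeak: the authors' score, fold enrichment (a ratio to the local background), −log10 p and −log10 q per summit, and the summit's offset. The lowest deposited −log10 p was 5.00 in each list.

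Autosomal and X intervals of different lines sharing 1 bp or more formed a merged region, and the strongest summit gave a line's values. Each pileup was recovered as the whole number of tags that reproduces both deposited values, with the fold read as pileup plus 1 over background plus 1 and the p-value as a Poisson upper tail, within 0.001 of the −log10 p; 99.9% of summits per list gave a value. Relative heights are log2 pileups at the 9053 shared regions, centred on each line's median, minus the mean of the 6 lines. Intervals of pileups are exact Poisson 95% intervals and cover counting error only.

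By rule, the text names the shared regions of each window, those low in TALL-1, recurrent regions without a TALL-1 peak and the 2 strongest line-only regions of each line; regions with peaks of 4 or 5 lines, the TALL-1 and MOLT-4 pairs and the remaining ERG and ETS2 regions were added after their values were seen. Windows, lists and comparisons were chosen with earlier results of these data known, and the local background, summit groups, pair counts and region edges were added after seeing the values. Relatives and partners such as RUNX3, CBFB and ETS1 were not analysed here, because no hg19 annotation was used. The recovery, merging and scaling were tested on simulated data. Those data were made with the same formulas that the recovery inverts, and every line had a peak at every region. The simulation therefore could not check the formulas themselves or the handling of missing peaks. Tools were matplotlib 3.10.9, scipy 1.17.1, pandas 2.3.3, numpy 2.4.6 and Python 3.11.15.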

Additional observations from a re-analysis of the deposited data

How the results depend on the processing

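Of 194 recomputed values for 54 results, 41 moved: counts by more than 1.5 times, heights by more than their counting error. The other 153 stayed within those limits. No paired analysis was possible because each line has 1 library. With only peaks of −log10 p 10 or more, the RUNX1 window held 36 intervals, 9 in TALL-1, 5 in CCRF-CEM, 4 in HBP-ALL, 2 in KOPT-K1 and 9 in MOLT-4, in 15 regions, 1 of them shared by every line. The ERG window then held 5 intervals, 0 of them in HBP-ALL, KOPT-K1 or MOLT-4. The ETS2 window held 5 intervals, 0 in TALL-1 and 0 in KOPT-K1, and 0 regions shared by every line. With equal numbers of peaks per line the RUNX1 window held 16 in TALL-1, 14 in MOLT-4, 8 in DND-41, 6 in KOPT-K1, 5 in CCRF-CEM and 4 in HBP-ALL. KOPT-K1 was then no longer the lowest line there. The ERG window held 0 in MOLT-4. In another alternative the merged regions were kept, and a line counted only where it covered a set share of the region's narrowest interval. By that rule, 1 RUNX1 region was shared by every line.

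With the authors' fold in place of the pileup, the median relative height at RUNX1 was 0.22 in TALL-1 (with pileups 1.28), −0.11 in KOPT-K1 (−0.74) and −0.05 in MOLT-4 (0.61), and TALL-1 at ETS2 stood 0.85 below the rest of the stretch, a difference of −0.85. Summed summits gave −0.78 in CCRF-CEM and 0.98 in MOLT-4 at ETS2. Against the median of the other 5 lines, RUNX1 was at 1.65 in TALL-1 and 0.98 in MOLT-4. Over regions with a peak in the line and at least 3 others it was 0.92 in TALL-1 and −0.52 in CCRF-CEM. At a fold of 1.5, TALL-1 was lower at 1 shared region, CCRF-CEM higher at 1, HBP-ALL higher at 1 and lower at 1, KOPT-K1 lower at 3 and MOLT-4 higher at 2. The difference of TALL-1 at ETS2 to the rest of the stretch ran from −2.39 to −0.85 over its alternatives, and that at RUNX1 from 0.01 to 0.22 over regions shared by every line. Among alternatives added after seeing the data, the RUNX1 difference was −0.41 over regions with a TALL-1 peak and at least 1 other line, and −0.41 with at least 3. Calls at 2 times on fold enrichment gave 0 regions higher in TALL-1 (2 on pileups), 0 higher in MOLT-4 (1 on pileups) and 0 lower in DND-41 (1 on pileups).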
